A study of Mus musculus with 17 samples.

Results

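The 37 genes of the mouse mitochondrial genome were examined in RNA from isolated brain nuclei. They were taken as all genes placed on the mitochondrial chromosome in the bulk nuclear RNA-seq files, 37 of the 36293 genes listed there, and as the 24 of them that the sNucDrop-seq tables list among 37608 genes. They comprise 13 protein-coding genes, 2 ribosomal RNA (rRNA) genes and 22 transfer RNA (tRNA) genes, of which 28 are annotated on the plus strand and 9 on the minus strand. The study asked how chronic unpredictable stress (CUS), a daily schedule of changing stressors, alters transcription in the cortex of male C57BL/6 mice (C57Bl/6J in the methods). Bulk nuclear RNA-seq measured the medial prefrontal cortex (mPFC) of 4 control and 5 CUS mice at postnatal day 90. sNucDrop-seq, which captures single nuclei on barcoded beads and counts unique molecular identifiers (UMIs), measured neocortical nuclei of 4 control and 4 CUS mice at postnatal day 80. Control mice were handled each day and kept in another room than CUS mice, so stress and housing cannot be told apart. Each mouse was 1 library, and p-values measure the spread between mice.

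Mitochondria carry their own small circular genome, which is transcribed inside the organelle as long transcripts from both strands and then cut into separate mRNAs, rRNAs and tRNAs. Its mRNAs encode subunits of respiratory complexes I, III, IV and V, while all remaining subunits are encoded in the nucleus and translated in the cytoplasm. Because the organelle lies outside the nucleus, mitochondrial transcripts in a nuclear preparation are commonly read as a measure of RNA carried over from the cytoplasm. The question here was therefore whether they moved, mouse by mouse and nucleus by nucleus, with other cytoplasmic RNAs.

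Bulk libraries held 26188825 to 30525015 counted reads, of which 28874 to 90576 fell on mitochondrial genes. The sNucDrop-seq tables held 40000 barcodes, of which 26860 nuclei were kept, with 4764206 to 12517664 UMIs a mouse and 22266 to 87169 mitochondrial UMIs. Any pair of sNucDrop-seq libraries shared at most 9 barcodes. The summed CPM (counts per gene scaled to a common library size) of 8 excitatory neuron markers was 999.1 to 1423 in the bulk libraries, and that of 8 striatal markers was 879 ± 203 (SD, n = 4) in controls and 1227 ± 95.7 (SD, n = 5) in CUS mice, although the labelled tissue is cortex. The striatal sum was carried by Pde10a, at 786 ± 150 CPM in controls and 1177 ± 100.2 in CUS mice. The fitted change of 7 of the 8 markers was below 0 (median −0.83 on the log2 scale). Of these, Rgs9 and Ppp1r1b were far higher in control mouse 4 than in any other mouse. Rgs9 stood at 97.94 CPM there and at 18.01 to 35.02 CPM in the others. Ppp1r1b stood at 25.8 CPM there and at 4.86 to 10.999 CPM in the others. Control mouse 4 also had a high mitochondrial share (0.259%). How far the fitted changes of the 7 markers rest on this mouse was not tested.

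Part of the mitochondrial genome has a near-identical copy in the nuclear genome, and this bears on every count from that stretch. In the GENCODE transcripts (build mm10), 7 gene models on the minus strand of chr1:24611535-24616197 align with mt-Co1, mt-Co2, mt-Atp6, mt-Co3, mt-Nd3, mt-Nd4l and mt-Nd4. Over 4149 aligned bases they differ at 7, an identity of 99.8%. The opening bases of mt-Co2 (chrMT:7013-7092) and of the chromosome 1 model Gm28661 (chr1:24615486-24615565, minus strand) are shown because they cannot be told apart.
mt-Co2: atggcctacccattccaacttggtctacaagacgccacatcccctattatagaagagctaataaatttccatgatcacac
Gm28661: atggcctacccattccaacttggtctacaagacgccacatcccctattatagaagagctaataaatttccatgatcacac

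The copy begins inside mt-Co1, which encodes the catalytic subunit of complex IV. Its stretch chrMT:6381-6460 is set beside the start of Gm29216 (chr1:24616118-24616197, minus strand), with the 6 differing bases in capitals, after which the sequences run on without a difference to the end of mt-Co1. Counted from the start of mt-Co1 the differences are T1056A, C1057T, A1059G, A1060G, C1062A and A1066T.
mt-Co1: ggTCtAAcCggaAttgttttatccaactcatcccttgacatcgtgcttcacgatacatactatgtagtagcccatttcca
Gm29216: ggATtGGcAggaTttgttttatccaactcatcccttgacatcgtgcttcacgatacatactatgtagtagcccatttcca
The copy ends inside mt-Nd4, a complex I subunit. In the stretch chrMT:11003-11082 the capitals mark the bases past the end of the copy, which only the mitochondrial genome carries among the annotated transcripts.
mt-Nd4: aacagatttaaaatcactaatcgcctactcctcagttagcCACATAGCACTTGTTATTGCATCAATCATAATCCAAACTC

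A read that fits both places equally is not counted when only uniquely mapped reads are used, as was done here. Of all 50-base windows, 100% of those in mt-Co2, 99.9% in mt-Co3, 99.5% in mt-Atp6, 98.8% in mt-Nd4l and 98.0% in mt-Nd3 were also found in an annotated nuclear transcript. The share was 62.2% in mt-Nd4 and 51.1% in mt-Co1, 8.19% in mt-Nd2, 7.61% in mt-Nd5 and 1.04% in mt-Rnr2, and 0% in mt-Rnr1, mt-Nd1, mt-Nd6 and mt-Cytb. For mt-Atp8, which lies within the span of the copy, the share was also 0%, since the gene models of the copy cover only its end, over fewer bases than a window. The bulk files list none of the 7 chromosome 1 models, and the sNucDrop-seq tables list 3 of them, at 0.165 CPM or less in sum.

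**Figure D1:**
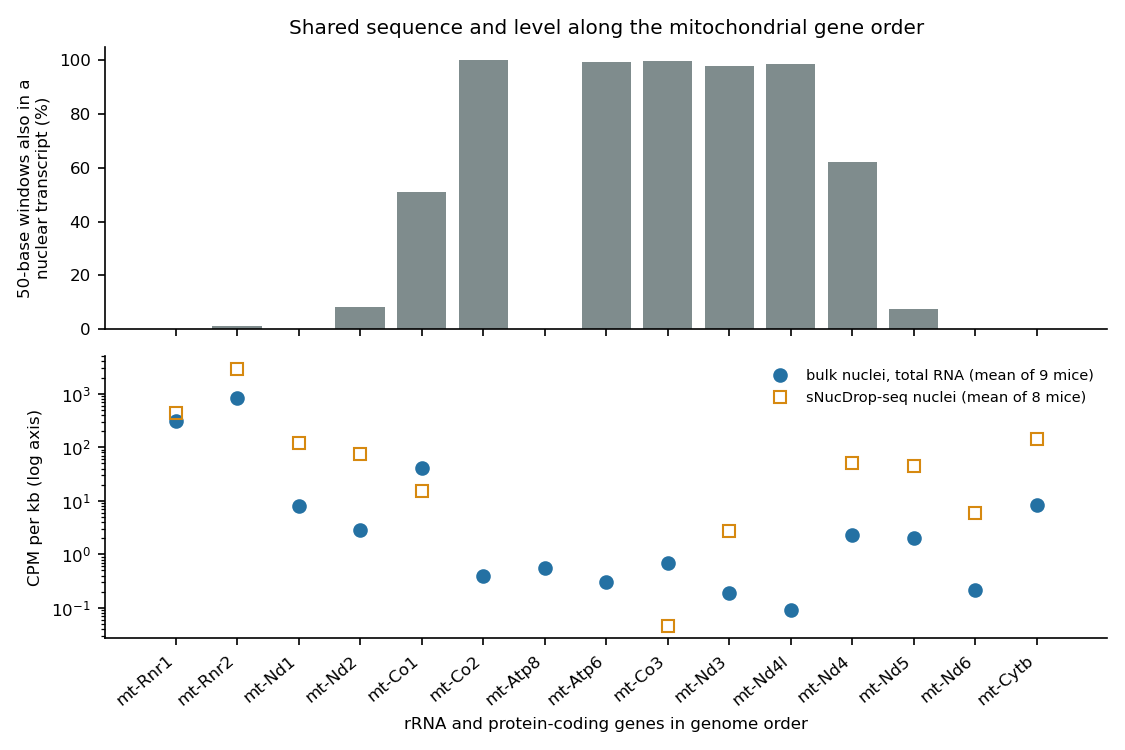
Top, share of 50-base windows (%) of each rRNA and protein-coding gene that also occur in an annotated nuclear transcript, in genome order. Bottom, CPM per kb of gene (log axis), with filled circles for the mean of 9 bulk mice and open squares for the mean of 8 sNucDrop-seq mice. Genes from mt-Co2 to mt-Nd4l lie below 1 CPM per kb in bulk, and of these all but mt-Atp8 (0%) share at least 98.0% of their windows.

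The rRNAs made up most of the mitochondrial signal in bulk nuclei. mt-Rnr2, the RNA of the large mitochondrial ribosomal subunit, averaged 814 CPM per kb, and mt-Rnr1, that of the small subunit, averaged 309 CPM per kb. Together they took 93.8% to 94.9% of mitochondrial reads in every mouse, although the libraries had been depleted of ribosomal RNA before sequencing. The count of mt-Rnr1 was 19.2% to 24.5% of that of mt-Rnr2.

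Mitochondrial mRNAs took 5.05% to 6.13% of mitochondrial reads in bulk. Per kb, mt-Co1 was the highest at 41.2 CPM, followed by mt-Cytb, the complex III subunit, at 8.51, the complex I subunits mt-Nd1 at 7.91, mt-Nd2 at 2.87, mt-Nd4 at 2.31 and mt-Nd5 at 2.05. The genes covered by the copy were far lower per kb: mt-Co3 stood at 0.683 CPM, mt-Co2 at 0.401, mt-Atp6 at 0.299, mt-Nd3 at 0.192 and mt-Nd4l at 0.0915. mt-Co2 and mt-Co3 encode subunits of complex IV and mt-Atp6 one of complex V. mt-Atp8, the other complex V subunit of this genome, stood at 0.562 CPM per kb. mt-Nd6, the only mRNA of the minus strand, stood at 0.220 CPM per kb, with 29 reads over all 9 mice. Minus-strand genes together took 68 of 429304 mitochondrial reads, 0.0158%.

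Among the 8 mRNAs with 155 or more windows found in no other annotated transcript, scaling to those windows left the leading 3 in the same order. The 5 others, mt-Co2, mt-Atp6, mt-Co3, mt-Nd3 and mt-Nd4l, had at most 6 such windows and could not be placed. Per 1000 such windows, mt-Co1 stood at 87.0 CPM, mt-Cytb at 8.89, mt-Nd1 at 8.34 and mt-Nd4 at 6.34. Among these 8, mt-Co1 thus stayed the highest, but whole-gene counts were scaled and no reads were set aside. More of its windows are shared (51.1%) than in any other of the 8 except mt-Nd4 (62.2%). Against the rest the scaling could only raise mt-Co1, so its place among them is no check. For mt-Atp8, within the span of the copy, sequence between the gene models of the copy was not compared.

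The tRNAs, which decode the mitochondrial mRNAs, were almost unmeasured. They took 0.0623% to 0.123% of mitochondrial reads, 19 to 92 reads a mouse in all 22 genes. Of these, 6 had no read in any of the 9 mice (mt-Ts1, mt-Td, mt-Tk, mt-Th, mt-Ts2 and mt-Tl2). Among them mt-Ts1, mt-Td and mt-Tk lie within the span of the chromosome 1 copy, where sequence between gene models was not compared. mt-Tl1, a leucine tRNA that sits directly after mt-Rnr2, had the most reads, 156 in all. It is shown whole (chrMT:2676-2750), as it was the single tRNA with enough reads to test.
mt-Tl1: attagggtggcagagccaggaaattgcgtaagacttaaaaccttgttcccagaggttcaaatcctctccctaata

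In single nuclei the same genes stood in another order. mt-Rnr2 held 82.1% of mitochondrial UMIs and averaged 2880 CPM per kb, and mt-Rnr1 averaged 429. Among mRNAs mt-Cytb led at 142 CPM per kb, ahead of mt-Nd1 at 119, mt-Nd2 at 75.3, mt-Nd4 at 51.4 and mt-Nd5 at 43.8, whereas mt-Co1 stood at 15.0. Per 1000 windows found in no other annotated transcript the order was mt-Cytb at 148 CPM, mt-Nd4 at 141, mt-Nd1 at 125, mt-Nd2 at 86.1, mt-Nd5 at 48.8 and mt-Co1 at 31.8, so that mt-Nd4 moved to the place after mt-Cytb. Drop-seq beads capture RNA by stretches of A, mainly the A tail added at its end, which the annotated sequences do not show. Within the mRNAs the longest run of A was 8 bases in mt-Nd2, 7 in mt-Co1, mt-Nd4 and mt-Nd5, 6 in mt-Nd1 and 5 in mt-Cytb. Whether tails or such runs bear on these levels was not tested. The longest run of A in mt-Rnr2, 7 bases long, is shown in capitals within chrMT:1458-1524.
mt-Rnr2: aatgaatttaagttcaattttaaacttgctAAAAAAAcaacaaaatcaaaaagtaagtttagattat
The tables list neither mt-Co2, mt-Atp6, mt-Atp8 nor mt-Nd4l, nor 9 of the tRNAs. mt-Co3 had 2 UMIs over 8 mice, mt-Nd3 67 and mt-Nd6 208.

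The bulk mitochondrial share differed more between mice than between groups. In controls it was 0.126%, 0.151%, 0.328% and 0.259% of counted reads in mice 1 to 4. In CUS mice it was 0.102%, 0.115%, 0.197%, 0.124% and 0.107% in mice 1 to 5. Control mice 3 and 4 were high, CUS mouse 3 was the highest of its group, and the groups overlapped. The mean was 0.216% ± 0.0943 (SD, n = 4) in controls and 0.129% ± 0.0387 (SD, n = 5) in CUS mice, a log2 difference of −0.68 that did not pass an exact two-sided permutation test over mice (p = 0.103). The highest mouse exceeded the lowest 3.21-fold. In bulk, fewer cells of a type, fewer mitochondria or less RNA from each cannot be told apart. The outcome depended on single mice: without control mouse 1 the log2 difference was −0.90 (exact permutation p = 0.0357) and without CUS mouse 3 it was −0.84 (exact permutation p = 0.0286), while without control mouse 3 it was −0.45 (exact permutation p = 0.25).

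**Figure D2:**
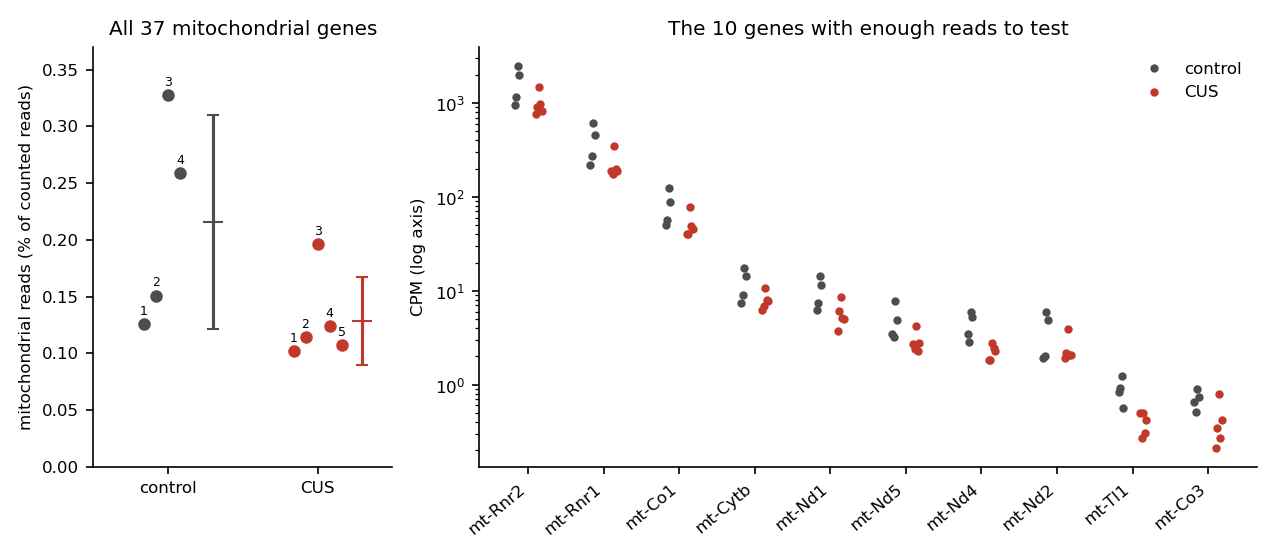
Left, mitochondrial share of counted reads (%) in each bulk mouse, numbered by replicate, with the group mean ± SD beside the points. Right, CPM (log axis) of the 10 mitochondrial genes with enough reads to test, in 4 control and 5 CUS mice. Control mice 3 and 4, at 0.328% and 0.259%, lie above all CUS mice.

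Of the 37 genes, 10 had enough reads to be tested across all genes: both rRNAs, 7 mRNAs and mt-Tl1. The other 27 held 450 reads between them, 16 with fewer than 10 in all. In edgeR's quasi-likelihood test the fitted change was below 0 for each of the 10, with a median of −0.72 on the log2 scale against 0.01 over all 18394 genes. Without control mouse 3 all 10 stayed below 0, but the median was −0.44, with mt-Co1 at −0.32, mt-Nd5 at −0.36 and mt-Nd2 at −0.22. The test called 1 of the 10 at a false discovery rate (FDR) of 0.05, where 3.29% of all genes were called in either direction and 2.13% were called lower in CUS mice.

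The called gene was mt-Nd4, the complex I subunit whose 5′ part has the nuclear copy. Its level was 3.46, 2.84, 5.90 and 5.24 CPM in control mice and 1.84, 1.83, 2.78, 2.45 and 2.29 CPM in CUS mice. Every CUS mouse was below every control mouse, by a narrow margin between CUS mouse 3 and control mouse 2. mt-Nd4 fell by 0.93 on the log2 scale (SE 0.216, edgeR adjusted p = 0.0387), and the call was lost when control mouse 4 or CUS mouse 1, 2, 4 or 5 was left out (adjusted p = 0.0624 to 0.0943).

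Among the 10 tested genes, mt-Tl1 was the other whose groups did not overlap. It stood at 0.836, 0.913, 1.23 and 0.559 CPM in controls and 0.494, 0.267, 0.491, 0.303 and 0.416 CPM in CUS mice. Its log2 change of −1.13 (SE 0.29) missed the threshold (edgeR adjusted p = 0.0531), and without control mouse 4 it passed (adjusted p = 0.0296). So 2 of 10 genes had every CUS mouse below every control mouse, which held for 6.03% of all genes tested.

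The rRNAs did not pass the test. mt-Rnr2 stood at 965, 1152, 2486 and 2004 CPM in controls and 774, 910, 1502, 975 and 816 CPM in CUS mice, a log2 change of −0.70 (SE 0.263, edgeR adjusted p = 0.147). mt-Rnr1 stood at 220, 273, 609 and 453 CPM in controls and 188, 175, 352, 196 and 188 CPM in CUS mice, a log2 change of −0.80 (SE 0.281, edgeR adjusted p = 0.125). In both, control mice 3 and 4 were high, and CUS mouse 3 lay above control mice 1 and 2.

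Nor did the other 6 mRNAs. mt-Co1 stood at 50.5, 56.6, 125 and 88.0 CPM in controls and 40.5, 40.1, 77.7, 48.8 and 45.0 CPM in CUS mice, with the same mice high (log2 change −0.64, edgeR adjusted p = 0.175). The log2 change was −0.76 for mt-Nd1, −0.58 for mt-Cytb, −0.71 for mt-Nd5, −0.58 for mt-Nd2 and −0.73 for mt-Co3, with edgeR adjusted p from 0.115 to 0.347. Genes too low to test gave 5, 2, 9 and 7 reads of mt-Nd6 in controls and 0, 0, 4, 1 and 1 in CUS mice.

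The balance of mitochondrial rRNAs and mRNAs stayed alike while their amount varied. As a share of mitochondrial reads, mt-Rnr2 was 76.5% ± 0.636 (SD, n = 4) in controls and 77.3% ± 1.58 (SD, n = 5) in CUS mice, and mt-Rnr1 was 17.9% ± 0.547 and 17.0% ± 1.38. Single low genes varied more, by 3.07-fold over mice for mt-Tl1, 2.46-fold for mt-Co3 and 1.93-fold for mt-Nd4 as a share of mitochondrial reads, beside 1.05-fold for mt-Rnr2. Since mt-Rnr2 makes up most of these reads, its share has little room to move. The mt-Rnr1 count, as above, was 19.2% to 24.5% of that of mt-Rnr2. mRNAs together were 5.48% ± 0.358 in controls and 5.64% ± 0.306 in CUS mice (exact permutation p = 0.468). None of the 10 tested genes differed between groups on this scale by an exact permutation test, the smallest adjusted p being 0.538, mt-Nd4 and mt-Tl1 included. This scale was chosen after seeing the data.

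The mitochondrial share was then set beside 8 lists of nuclear genes over the 9 bulk mice, with each list summed to CPM and both axes on the log2 scale. These 9 mice come from both groups, so their relations include the group difference. Each p is from a permutation test over all orders of the 9 mice and was adjusted over the 8 lists.

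The lists that stand for cytoplasmic RNA gave mixed answers. The paper describes nuclear RNA as mostly newly made pre-mRNA, so counts of these nuclear genes also hold RNA still in the nucleus. The parts from nucleus and cytoplasm were not told apart. For 22 abundant cytoplasmic mRNAs, among them Snap25 and Ywhaz, Pearson's r was 0.71 (exact permutation p = 0.033, adjusted 0.0881) and Spearman's rho 0.73, and r was 0.523 without the 2 mice farthest from the median. For 79 cytosolic ribosomal protein mRNAs, led by Rpl3, Rpl4 and Rpsa, r was 0.60 (exact permutation p = 0.0904, adjusted 0.181). For the nuclear-encoded respiratory chain (OXPHOS) subunits, led by Atp5b, Sdha and Atp5a1, r was 0.24 (exact permutation p = 0.555). Many of these proteins join the mitochondrial subunits in the same complexes. Sdha does not, as complex II has no subunit from the mitochondrial genome. None of these 3 lists passed after adjustment.

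Their spread was also far smaller than that of the mitochondrial RNA. Across mice the abundant mRNAs ranged 1.16-fold, the OXPHOS mRNAs 1.21-fold and the ribosomal protein mRNAs 1.33-fold, beside 3.21-fold for the mitochondrial share. In the comparison of CUS with control mice edgeR's quasi-likelihood test called no gene among 23 tested abundant mRNA entries, 79 ribosomal protein genes or 77 OXPHOS entries, with median log2 changes of −0.04, 0.01 and 0.06. DESeq2 called 1 abundant mRNA lower and 2 OXPHOS entries higher, where it called 1402 of 18394 genes in either direction. Of 35 tested factors that transcribe, process or maintain the mitochondrial genome, Supv3l1, which degrades mitochondrial RNA (log2 change 0.32, edgeR adjusted p = 0.0233), and Mterf4, which serves mitochondrial ribosome assembly (0.34, edgeR adjusted p = 0.0476), rose and none fell, where 1.16% of all genes were called higher. Neither was called without TMM factors.

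The nuclear-retained RNAs, led by Malat1, Snhg14 and Meg3, did not follow the mitochondrial share (r = −0.25, exact permutation p = 0.506). Their sum was higher in CUS mice, by 0.11 on the log2 scale (exact permutation p = 0.0397, not adjusted over lists). Of the 9 genes 1 was called lower and 1 higher, where 2.13% and 1.16% of all genes were. Haemoglobin mRNAs, a measure of blood in the tissue led by Hbb-bs, Hba-a1 and Hba-a2, gave r = 0.45 (exact permutation p = 0.231), and choroid plexus markers gave r = 0.20 (exact permutation p = 0.604). The choroid plexus sum was carried by Enpp2, at a mean of 142 CPM beside 1.86 for Kl and 1.04 for Prlr. The paper also names a class of excitatory neurons by Enpp2, so this r says little about choroid plexus.

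Among the 8 lists the closest relations were with markers of oligodendrocytes and astrocytes. For 8 oligodendrocyte markers, among them Mbp and St18, which serve myelin and the cells that make it, r was 0.88 (exact permutation p = 0.00423, adjusted 0.0181) and Spearman's rho was 0.78 (exact permutation p = 0.0172, adjusted 0.0983). Their sum was 307.5, 476.0, 698.4 and 742.8 CPM in controls and 319.0, 329.5, 395.1, 392.7 and 389.2 CPM in CUS mice. Control mice 3 and 4 were again the highest, and without those 2, which lay farthest from the median, r fell to 0.515. The relation thus rested largely on 2 mice, although r stayed between 0.827 and 0.932 when any 1 mouse was left out.

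For 8 astrocyte markers, led by the glutamate transporter Slc1a2, the bicarbonate transporter Slc4a4 and Slc1a3, r was 0.85 (exact permutation p = 0.00452, adjusted 0.0181) and rho was 0.72 (exact permutation p = 0.0369, adjusted 0.0983). Without the 2 mice farthest from the median, here control mouse 4 and CUS mouse 2, r was 0.852. Control mouse 3 stayed in, so r without control mice 3 and 4 was not computed for this list. Within the 4 control mice r was 0.947 and within the 5 CUS mice 0.430, beside 0.922 and 0.557 for the oligodendrocyte markers. The astrocyte sum was carried by Slc1a2, at a mean of 1166 CPM beside 219 for Slc4a4 and 143 for Slc1a3. Alone, Slc1a2 had r = 0.77. Taken gene by gene, all 8 oligodendrocyte markers and 5 of 8 astrocyte markers had r above 0.5 with the mitochondrial share, as did 11 of 23 abundant mRNA entries, 32 of 79 ribosomal protein genes, 10 of 77 OXPHOS entries, 5 of 8 striatal, 4 of 8 OPC and 3 of 8 microglia markers and 2162 of 18384 genes outside the mitochondrial genome. The median r was 0.86 for the oligodendrocyte, 0.62 for the astrocyte, 0.57 for the striatal markers, 0.50 for the abundant mRNAs, and 0.49 for the oligodendrocyte precursor (OPC) and 0.23 for the microglia markers. Of the inhibitory markers 1 of 8 had r above 0.5 (median 0.20), and 0 of 8 excitatory (−0.15) and 0 of 8 endothelial markers (−0.36). In the comparison of groups, 1 oligodendrocyte marker (St18) and 3 astrocyte markers (Aqp4, Gja1 and Slc4a4) fell and none rose, where 2.13% of all genes were called lower, and the fitted change of all 8 oligodendrocyte markers was below 0 (median −0.51). Of the 8 excitatory markers Neurod6 and Nrn1 rose, where 1.16% of all genes were called higher, and the fitted change was above 0 in 7 of 8 (median 0.24). Among the 8 OPC markers Lhfpl3 fell and Tnr rose. Whether nuclei or cytoplasm of these cell types contributed to the mitochondrial share was not tested.

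**Figure D3:**
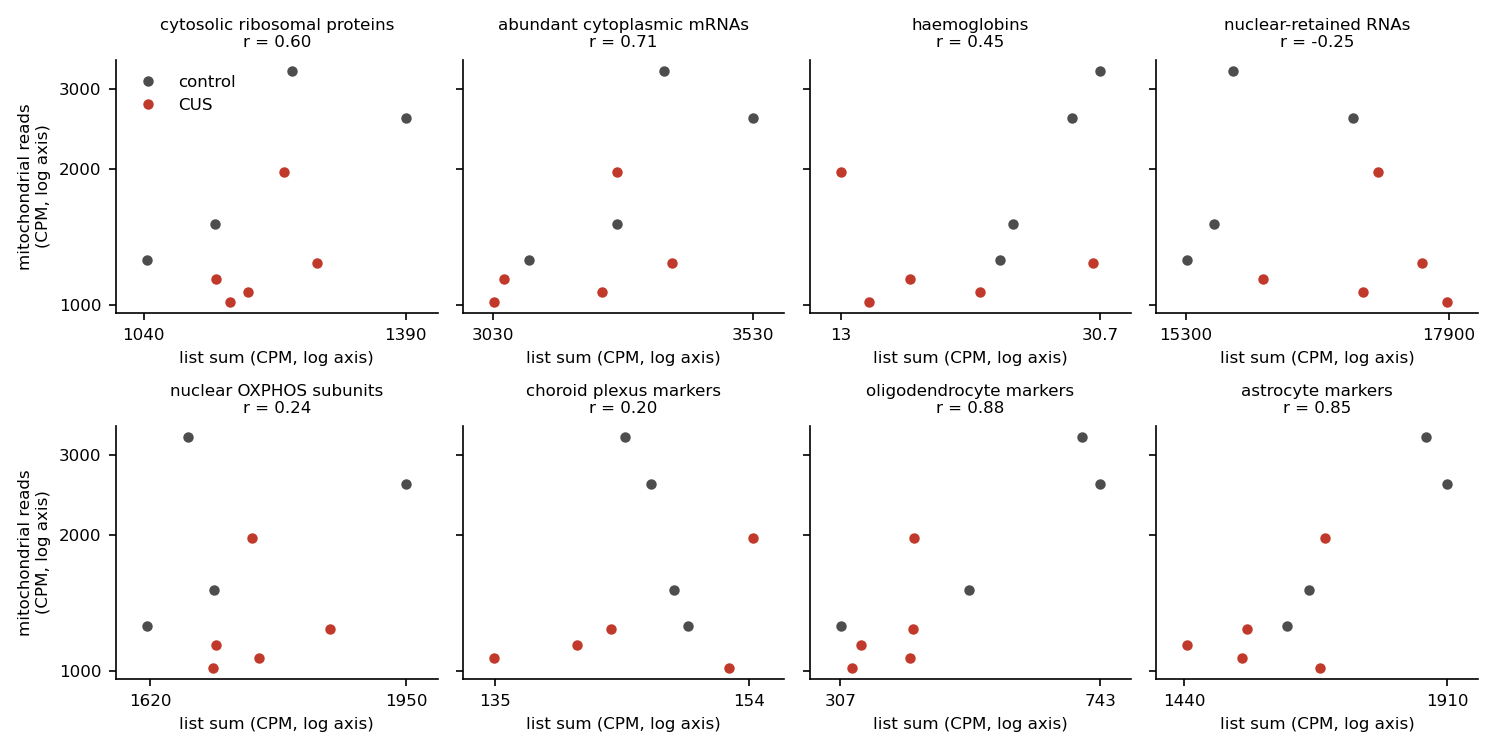
Mitochondrial reads (CPM, log axis) against the summed CPM (log axis) of 8 lists of nuclear genes in 4 control and 5 CUS bulk mice, 1 point per mouse, with Pearson's r over the 9 mice. The points line up most closely with oligodendrocyte (r = 0.88) and astrocyte markers (r = 0.85), and least with choroid plexus markers (r = 0.20), OXPHOS subunits (r = 0.24) and nuclear-retained RNAs (r = −0.25). The choroid plexus sum is mostly Enpp2 and the astrocyte sum mostly Slc1a2.

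In single nuclei no difference between groups passed the test. The share was higher than in bulk, but the assays differ in tissue, capture and unit counted, so the levels are not on the same scale. In kept nuclei, mitochondrial UMIs were 0.476%, 0.721%, 0.679% and 0.467% of all UMIs in control mice 1 to 4 and 0.407%, 0.391%, 0.637% and 0.628% in CUS mice 1 to 4. Each group thus held 2 mice above 0.6% and 2 below 0.5%. The mean was 0.586% ± 0.133 (SD, n = 4) in controls and 0.516% ± 0.135 (SD, n = 4) in CUS mice, a log2 difference of −0.19 (exact two-sided permutation p = 0.486). At either level both CUS mice lay below both control mice. The study drew 2 control and 2 CUS mice from each of 2 batches, but the labels do not say which mice shared a batch, so values within batches could not be given, and whether the levels are the batches was not tested. For protein-coding genes alone the difference had the opposite sign, 0.18 (exact permutation p = 0.257).

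Of the 24 listed genes 7 passed the filter on low counts. edgeR's quasi-likelihood test on summed counts per mouse called none of them at an FDR of 0.2, where 0.0199% of 5023 genes were called. Their log2 changes ran from −0.30 for mt-Rnr1 to 0.26 for mt-Cytb, 3 below and 4 above 0, and only mt-Cytb had an unadjusted p below 0.05 (0.0486). DESeq2 and edgeR's likelihood ratio test also called none. mt-Nd4, lower in bulk CUS nuclei, stood at 57.0, 69.0, 77.2 and 56.5 CPM in controls and 101.6, 58.3, 64.4 and 82.7 CPM in CUS mice here, with overlapping groups (log2 change 0.23, SE 0.15, adjusted p = 0.631). By the methods, bulk mice were taken after behavioural tests and sNucDrop-seq mice after the final stressor. The assays thus differ in tissue, age, capture and time of collection, so the difference between them was not tested.

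Unlike in bulk, the composition changed from mouse to mouse. The mt-Rnr1 count was 3.49%, 13.4%, 12.9% and 3.93% of that of mt-Rnr2 in control mice and 5.21%, 3.60%, 12.5% and 10.5% in CUS mice. The 4 mice with a high ratio were those with a high mitochondrial share. mt-tRNA UMIs did not split the same way, at 9, 162, 133 and 15 in controls and 179, 12, 108 and 134 in CUS mice, where CUS mouse 1 had the most.

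Because the share fell at 2 levels, no correlation over the 8 mice was computed. The levels were read from the share itself, so no test within them was run. The values stand side by side instead. Abundant cytoplasmic mRNAs were at 11294, 10361, 11758 and 9856 CPM in controls and 13486, 9118, 12025 and 12348 CPM in CUS mice, and the 4 mice with a high mitochondrial share were not set apart. Nuclear-retained RNAs stood at 99508, 64812, 73436 and 88914 CPM in controls and 102769, 113971, 81818 and 73519 CPM in CUS mice. Here the 4 mice with a high mitochondrial share were the 4 lowest.

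Barcodes with few genes had a higher mitochondrial share. Barcodes under 600 genes were left out of the kept nuclei. Each mouse has a fixed 5000 deposited barcodes, which bears on how many fall under this limit. There were 1539, 113, 0 and 2701 such barcodes in control mice and 917, 1528, 1368 and 80 in CUS mice. The mitochondrial share of these barcodes was 1.20%, 0.995% and 1.87% in the 3 control mice that had any, and 1.05%, 0.857%, 1.08% and 0.799% in CUS mice. It was higher than in kept nuclei in 7 of 7 mice, 2.08-fold on average (1.27-fold to 3.99-fold; exact sign-flip p = 0.0156, the smallest that 7 mice can give; adjusted 0.0352 over 9 measures).

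The lists of cytoplasmic mRNAs, whose counts also hold RNA still in the nucleus, did not pass the same test. In low barcodes the ribosomal protein mRNAs were 1.17-fold those of kept nuclei (exact sign-flip p = 0.125), the abundant mRNAs 1.16-fold (exact sign-flip p = 0.234), the OXPHOS mRNAs 1.15-fold (exact sign-flip p = 0.234) and the nuclear-retained RNAs 1.03-fold (exact sign-flip p = 0.641), each higher in 5 of 7 mice. Haemoglobin mRNAs were 1.84-fold, higher in 6 of 7 mice (exact sign-flip p = 0.0469, adjusted 0.0844). Choroid plexus markers were 2.42-fold higher in 7 of 7 mice (exact sign-flip p = 0.0156, adjusted 0.0352), though only 1 of these 8 markers passed the filter on low counts in kept nuclei. Oligodendrocyte markers were 8.72-fold higher in 7 of 7 mice (exact sign-flip p = 0.0156, adjusted 0.0352) and excitatory markers lower in 7 of 7, at 0.823-fold. Astrocyte markers, for which no test was run, were also higher in low barcodes in 7 of 7 mice, from 1898 against 923 CPM in control mouse 2 to 4476 against 790 CPM in CUS mouse 2. The part of glial RNA in the raised mitochondrial share of low barcodes was not tested. Within each mouse the ratio of mt-Rnr1 to mt-Rnr2 was slightly higher in low barcodes, as with 3.83% against 3.49% in control mouse 1 and 14.5% against 13.4% in control mouse 2. The mRNA share of mitochondrial UMIs was lower there in each of these mice. It ran from 7.64% against 7.88% in CUS mouse 3 to 9.97% against 16.3% in CUS mouse 1. No test was run on either.

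The share fell with the number of genes detected. Its median over mice was 1.12% in barcodes of 1 to 299 genes (3 mice), 1.05% at 300 to 599 genes (7 mice), 0.797% at 600 to 999 and 0.576% at 1000 to 1499 genes, then 0.499%, 0.496% and 0.540% in the deeper bins. The last of these bins holds 6 mice, without control mouse 1 and CUS mouse 2, whose shares were low.

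**Figure D4:**
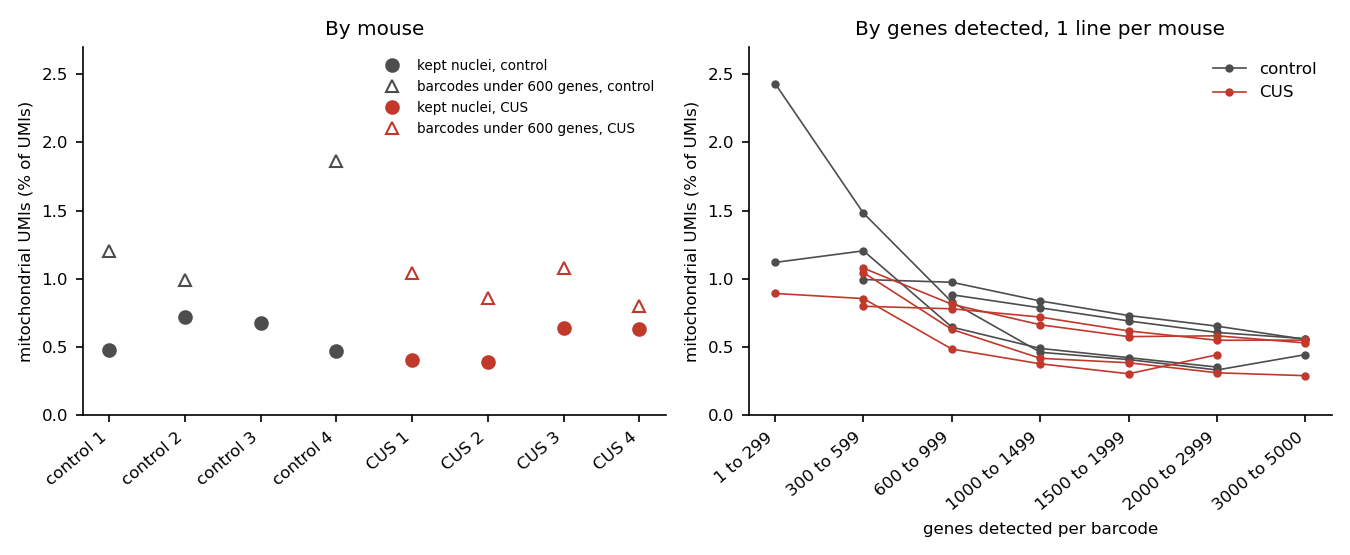
Left, mitochondrial share of UMIs (%) in kept nuclei (circles) and in barcodes under 600 genes (triangles) of each sNucDrop-seq mouse; control mouse 3 had no low barcodes. Right, the share by number of genes detected, 1 line per mouse, with medians from 1.12% in the lowest bin to 0.496% at 2000 to 2999 genes.

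Comparing nuclei within a mouse gave a clearer relation. Excitatory-like nuclei of 1500 to 3000 UMIs (7286 nuclei) were split in each mouse into quintiles by mitochondrial share, from 0.161% in the bottom to 1.06% in the top quintile, and other RNAs were scaled to CPM without the mitochondrial UMIs. This split was chosen after seeing the data. Ribosomal protein mRNAs were 1.35-fold higher in the top quintile, abundant cytoplasmic mRNAs 1.37-fold and nuclear OXPHOS mRNAs 1.38-fold, each in 8 of 8 mice (exact sign-flip p = 0.00781, the smallest that 8 mice can give; adjusted 0.0125 over 8 lists). Nuclear-retained RNAs were lower in 8 of 8 mice, at 0.845-fold, from 96215 to 81326 CPM (same p). Oligodendrocyte markers, foreign to these neurons, were higher in 8 of 8 mice, 1.39-fold, from 213 to 291 CPM (same p), while excitatory markers did not pass (1.05-fold, exact sign-flip p = 0.234). Haemoglobin mRNAs did not pass either (0.871-fold, exact sign-flip p = 0.406). Factors that serve the mitochondrial genome were 0.947-fold in the top quintile (exact sign-flip p = 0.0313, adjusted 0.0417).

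The excitatory-like class pools 12 clusters, whose mitochondrial share ran from 0.300% to 0.678%. With nuclei ranked within each mouse and cluster, also chosen after seeing the data, ribosomal protein mRNAs were 1.32-fold, abundant cytoplasmic mRNAs 1.34-fold, OXPHOS mRNAs 1.35-fold and oligodendrocyte markers 1.40-fold higher in the top quintile, and nuclear-retained RNAs were at 0.852-fold, each in 8 of 8 mice (exact sign-flip p = 0.00781, adjusted 0.0125). The factors that serve the mitochondrial genome no longer passed (0.951-fold, exact sign-flip p = 0.102, adjusted 0.135).

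Astrocyte-like nuclei of 800 to 2000 UMIs (1119 nuclei) gave the same directions for the cytoplasmic and nuclear-retained lists, with wider gaps. From the bottom to the top quintile the mitochondrial share went from 0.285% to 2.46%. Abundant cytoplasmic mRNAs were 2.05-fold higher, ribosomal protein mRNAs 1.74-fold and OXPHOS mRNAs 1.63-fold, and nuclear-retained RNAs were at 0.726-fold (exact sign-flip p = 0.00781, adjusted 0.0137 in each, all in 8 of 8 mice). Oligodendrocyte markers did not pass there (1.52-fold, higher in 5 of 8 mice, exact sign-flip p = 0.227).

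Classes of nuclei, built by clustering without the mitochondrial genes and named from marker lists, differed in their mitochondrial share. The mean over 8 mice was 0.476% ± 0.139 (SD) in excitatory-like nuclei, the lowest of the 8 classes, and 0.595% ± 0.174 in inhibitory-like, 0.605% ± 0.222 in striatal-like, 0.653% ± 0.232 in microglia-like and 0.722% ± 0.318 in oligodendrocyte-like nuclei. It was 0.866% ± 0.255 in OPC-like, 1.11% ± 0.225 in astrocyte-like and 4.52% ± 1.03 in endothelial-like nuclei. Relative to excitatory-like nuclei of the same mouse the share was higher in 8 of 8 mice in each of the 7 other classes, from 1.24-fold in striatal-like to 9.68-fold in endothelial-like nuclei (exact sign-flip p = 0.00781 in each, adjusted 0.00781).

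Depth differed between classes, from a median of 2244 UMIs in excitatory-like to 1120 in OPC-like nuclei. Among nuclei of 1000 to 2000 UMIs only, a limit chosen after seeing the data, 6 of the 7 classes kept the call. Endothelial-like nuclei were then 8.27-fold and astrocyte-like nuclei 1.96-fold above excitatory-like nuclei, whereas striatal-like nuclei were at 1.14-fold, higher in 5 of 8 mice (exact sign-flip p = 0.102). The order among neighbouring classes was not tested. Microglia-like nuclei were higher in 7 of 8 mice (1.39-fold, exact sign-flip p = 0.0391, adjusted 0.0456). Few nuclei stand behind the endothelial-like and microglia-like values, as few as 2 and 4 a mouse within this limit, and 4 to 47 and 9 to 61 a mouse without it.

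No difference between CUS and control mice passed within a class. The mean share was lower in CUS mice in each of the 8 classes, by log2 −0.19 in striatal-like and astrocyte-like nuclei to −0.48 in OPC-like and −0.53 in microglia-like nuclei, and the groups overlapped in all of them. By exact permutation tests over mice the adjusted p was 0.457 or more, and 4 mice against 4 cannot give a p below 0.0286 before adjustment. No difference by group in the ratio to excitatory-like nuclei passed either (exact permutation, adjusted p of the interaction 0.7 or more over 7 classes), with log2 differences of −0.22 for OPC-like and −0.28 for microglia-like nuclei. In excitatory-like nuclei the share was 0.512% ± 0.131 in controls and 0.439% ± 0.157 in CUS mice (SD, n = 4 each), and in endothelial-like nuclei 5.00% ± 0.911 and 4.04% ± 1.02.

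**Figure D5:**
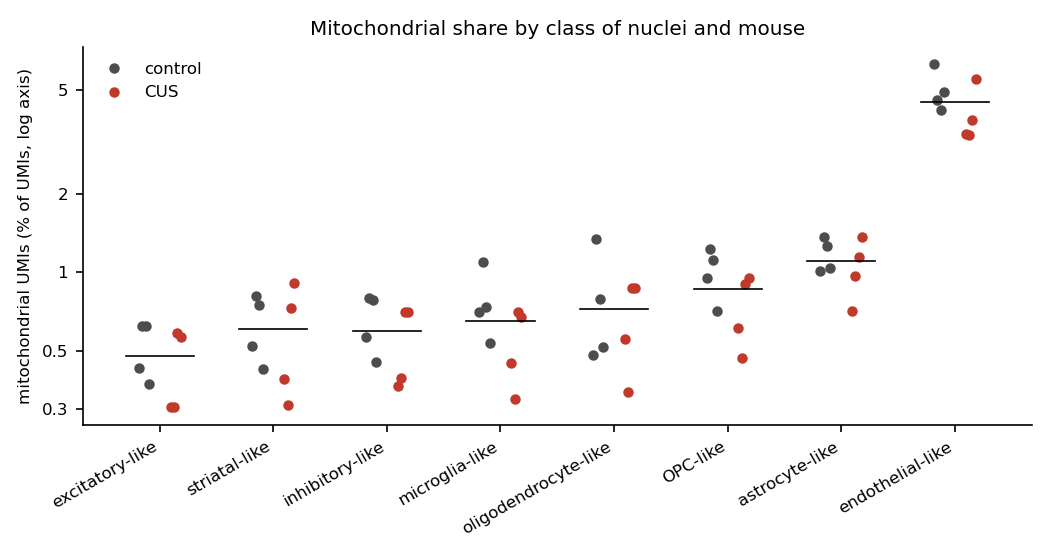
Mitochondrial share of UMIs (%, log axis) in 8 classes of nuclei, 1 point per mouse for 4 control and 4 CUS mice, with a line at the mean of the 8 mice. Endothelial-like nuclei (mean 4.52%) lie above every other class in every mouse, and excitatory-like nuclei (mean 0.476%) are lowest.

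The class with the highest share also held more of other cytoplasmic RNAs. Endothelial-like nuclei carried 9700 CPM of ribosomal protein mRNAs, beside 2018 in excitatory-like and 2257 in astrocyte-like nuclei, and 11309 CPM of OXPHOS mRNAs, beside 5945 and 7556. Nuclear-retained RNAs stood at 55109 CPM in endothelial-like, 83003 in excitatory-like and 104074 in astrocyte-like nuclei. Astrocyte-like nuclei thus had a raised mitochondrial share with ribosomal protein mRNAs near those of neurons. The 128 endothelial-like nuclei also held 953 haemoglobin UMIs among their 267215 UMIs, beside 288 in the largest excitatory-like cluster of 3952 nuclei, 122 in the 258 microglia-like and 70 in the 1221 astrocyte-like nuclei. The part of red blood cell RNA in the mitochondrial share of this class was not tested. These are sums over all nuclei of a class or cluster, given without a test.

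The study's methods removed nuclei above 5% mitochondrial UMIs, a limit not applied to the values above. Here that limit would have removed 111 of the 26860 kept nuclei, 0.413%. They were not spread evenly: 51 of 128 endothelial-like nuclei (39.8%) and 19 of 1221 astrocyte-like nuclei (1.56%) exceeded it, against 2 of 16916 excitatory-like and 3 of 3905 inhibitory-like nuclei. A further 34 lay in clusters that were given no name, 14 of them among 193 nuclei led by Nefm and Pcp4, 12 among 16 nuclei led by Dnah12 and Spef2, and 7 among 67 led by Bnc2 and Fbxl7.

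These unnamed clusters were unlike each other. The 193 nuclei led by the neuronal genes Nefm and Pcp4 had a mitochondrial share of 2.27%, with 33907 CPM of abundant cytoplasmic mRNAs, 17918 CPM of OXPHOS mRNAs and 33856 CPM of nuclear-retained RNAs. The 67 nuclei led by Bnc2 had nearly the same share, 2.26%, with 7070, 4797 and 98912 CPM of these lists. The 16 nuclei led by Dnah12 and Spef2, genes of motile cilia, came from 3 mice and had the highest share, 9.12%, with 6207 CPM of abundant cytoplasmic mRNAs and 55350 CPM of nuclear-retained RNAs. A high mitochondrial share thus went with raised cytoplasmic mRNAs in the cluster led by Nefm and not in the other 2, as a description of these nuclei.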

How the data were processed

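The deposited bulk files give raw counts of reads per gene and the sNucDrop-seq tables give UMI counts per gene and barcode. The authors made both counts from uniquely mapped reads on build mm10, on exons and introns for nuclei. The submitters' processing notes name STAR, Seurat and edgeR without versions. Nuclei counts used reads on the annotated strand; how bulk reads of overlapping or antisense genes were counted is not given in the sources used here. The methods fitted a batch term for nuclei, which was not possible here because the labels do not give the batch.

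The members and lists were chosen with earlier results of these data known. Values were printed for mitochondrial genes past an FDR, both rRNAs, the 5 mRNAs highest per kb, mt-Nd6, mt-Co1, mt-Co2, mt-Atp6, mt-Co3 and tested tRNAs, and names for the 3 highest genes of each list, some of which are not reported here; other names were added after values were seen. Gm29215, put in the list of copies, lies on another chromosome and had no bulk read.

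Bulk counts were tested with edgeR 4.0.16 in R 4.3.3 (filterByExpr, TMM, quasi-likelihood, FDR 0.05), on the 4 control and 5 CUS mice. In data simulated at log2 changes of 1, this recovered 82.5% of 200 changed genes, and 3.51% of its calls were false. Nuclei were kept at 600 to 5000 genes and a doublet score of at most 0.2, which removed 15.0% of 31611 barcodes, without the 5% mitochondrial limit of the methods. Counts summed per mouse were tested on 5023 genes at FDR 0.2; the simulation recovered 99.5%, with 25.5% of calls false. Clusters were built in scanpy 1.11.5 on 2000 variable genes without mitochondrial ones (50 components, 20 neighbours, resolution 1), and the naming cut-offs were set after seeing the clusters, in place of a stricter first form. Shares were compared by exact permutation of mice or exact sign flips within mice. Counting intervals were not used to compare mice. No libraries were duplicates, as replicate counts differed beyond counting error (chi-square per degree of freedom 2.75 or more). Alternatives were the likelihood ratio test, DESeq2 1.42.0, no TMM, no filter, a replicate block, other nuclei limits, a coarser clustering, and leaving out each mouse. Sequences are GENCODE vM21 transcripts (mm10), whose coordinates equal those in the files; genome sequence between gene models was not read.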

Additional observations from a re-analysis of the deposited data

Results flagged for a closer look

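In groups of 4 to 10 mice, the highest or lowest mouse was set against the others with Dixon's test. Of 101 groups tested, 13 held a mouse beyond the 95% critical value, where chance gives about 1 in 20. Several of these share the same reads and are not separate events.

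CUS mouse 3 of the bulk set stood above the other 4 CUS mice in 8 mitochondrial measures. Its share was 0.197% (others 0.102% to 0.124%), its rRNA 1854 CPM (961.2 to 1172) and its mRNA 109.5 CPM (57.4 to 69.4). By gene it held 352 CPM of mt-Rnr1 (others at most 196.5), 1502 CPM of mt-Rnr2 (at most 975), 77.7 CPM of mt-Co1 (at most 48.8), 4.23 CPM of mt-Nd5 (at most 2.77) and 3.87 CPM of mt-Nd2 (at most 2.18). Its oligodendrocyte markers were at 395.1 CPM, the highest of the CUS group, though close to 2 other CUS mice (392.7 and 389.2), and its haemoglobin mRNAs were the lowest of the 9 mice at 13.0 CPM.

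Among sNucDrop-seq controls, mouse 3 was highest for mt-Cytb at 163 CPM (others at most 143.6) and mt-Nd1 at 120.5 CPM (others at most 101.1). Control mouse 2 had 1068 CPM of oligodendrocyte markers in kept nuclei (other controls at most 744.7, CUS mice up to 1230). Among CUS mice, mouse 3 had the lowest share of nuclei above 5% mitochondrial UMIs, 0.294% (other CUS mice 0.506% or more). Also among them, mouse 2 had 388.5 CPM of choroid plexus markers (others at most 190.1), while its mitochondrial share, 0.391%, was the lowest of the 8.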

How the results depend on the processing

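The bulk call of 1 mitochondrial gene became 2 with the likelihood ratio test, with DESeq2, without TMM factors or without the filter on low counts, where mt-Tl1 joined mt-Nd4. Of all 18394 genes the main test called 606, the likelihood ratio test 1330, DESeq2 1402 and the test without TMM factors 822. Without the filter 780 of 30060 genes were called. The mitochondrial count was 0 to 1 when each mouse was left out, where 133 to 1508 of all genes were called. None was called without CUS mouse 1, 2, 4 or 5, and mt-Tl1 took the place of mt-Nd4 without control mouse 4. With a replicate block the mitochondrial count was 5 (mt-Rnr1, mt-Rnr2, mt-Nd1, mt-Co1 and mt-Nd4), where 238 of 18394 genes were called. Equal numbers did not pair the mice: the correlations of deviations were 0.04, 0.13, 0.02 and 0.08 in bulk and 0.37, −0.06, 0.39 and −0.47 in nuclei, not every mouse was closest to its own number, and the block changed no call in nuclei. The bulk log2 difference in share ran from −0.90 to −0.45 over mice left out and passed in 2 of 9. Over mice left out, r ran from 0.427 to 0.695 for ribosomal protein mRNAs, 0.605 to 0.818 for abundant mRNAs, 0.218 to 0.713 for haemoglobins, 0.827 to 0.932 for oligodendrocyte and 0.795 to 0.935 for astrocyte markers, −0.409 to −0.033 for nuclear-retained RNAs, −0.212 to 0.612 for OXPHOS mRNAs and −0.052 to 0.410 for choroid plexus markers. Striatal-like nuclei lost their call at 1000 to 2000 UMIs (log2 ratio 0.19). The cause of these changes was not tested. No mitochondrial gene was called in nuclei under any alternative run. The relation between mice in nuclei was not run under alternatives, as no pooled r was given. The tRNAs other than mt-Tl1, and mt-Atp8 and mt-Nd6, had too few bulk reads to test, and whether depth or shared sequence set this was not tested. mt-Co2, mt-Atp6, mt-Nd3 and mt-Nd4l, also untested, have almost no windows of their own, which limits unique counts at any depth.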

Other observations

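Over the 9 bulk mice, the genes outside the mitochondrial genome whose levels lay closest to the mitochondrial share by Pearson's r were ranked among 18384 and chosen after their values were seen. The highest was Opa3, whose protein is mitochondrial (r = 0.96), with a range of 1.29-fold over mice. Purb and Tsix came next (r = 0.95 in both). Prr5l, Gpr45 and Chst2, each with r = 0.94, ranked between Aldoc and Glul below. The lowest r of any gene was −0.96. Scd1, a fatty acid desaturase, and Aldoc, an aldolase of astrocytes, both had r = 0.94 and ranged 2.17-fold and 2.36-fold, and Glul, the glutamine synthetase of astrocytes, had r = 0.93 and ranged 1.60-fold. Such leading values are picked from many and carry no test.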
